A study of Mus musculus with 6 samples.

Results

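Matrix metalloproteinases (Mmps) are zinc-dependent proteases that cut collagens, gelatins, proteoglycans and other matrix proteins. The values below follow the mRNAs of 9 of them, Mmp2, Mmp3, Mmp9, Mmp10, Mmp11, Mmp13, Mmp14, Mmp19 and Mmp23, in mouse dermal fibroblasts given interleukin-1 (IL-1). The members are the genes with these names in the scanner files, and all non-control probes of each were taken, 11 probes in all out of 41174 on the array. After removal of dim probes 22210 genes were measured, and all 9 Mmp genes were among them.

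The cells were cultured fibroblasts of the dermis, which make its collagen matrix, from C57BL/6 mice. They were grown in serum-containing medium. Treated cells received IL-1 at 20 ng/ml for 1, 2 or 4 h, and the control was the same kind of cell without IL-1 (0 h). Each of the 6 arrays set treated RNA of a given time against untreated RNA. At each time replicate 1 had the treated RNA in Cy5 and replicate 2 had it in Cy3. Such a dye-swapped pair was counted as 1 sample. The labels do not give the number of animals or cultures, the isoform of IL-1, or whether 1 untreated extract served all arrays, so p-values measure only the spread between these samples.

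In connective tissue Mmps are secreted or membrane-bound as inactive proenzymes, in which a cysteine of the propeptide blocks the catalytic zinc. Other proteases, plasmin and other Mmps among them, remove the propeptide, and the Timp proteins inhibit the active enzymes. In fibroblasts IL-1 is a known inducer of the stromelysins and collagenases. The promoters of several of these genes hold a TATA box and a site for AP-1, the dimer of Fos and Jun proteins.

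Promoter sequences were taken from RefSeq (GRCm38.p6), where 6 of the 9 genes had an entry: Mmp3, Mmp10, Mmp11, Mmp13, Mmp14 and Mmp23. Mmp3, Mmp10 and Mmp13 had their highest ratios at 4 h below, as did Mmp9, which lies on chromosome 2 and had no entry. Sequences are shown for the 3 secreted enzymes with genes near each other on chromosome 9, and for the membrane enzyme Mmp14 for contrast. Each covers the 250 bases before the annotated start on the plus strand, at chr9:7445572-7445821 for Mmp3, chr9:7502092-7502341 for Mmp10, chr9:7272264-7272513 for Mmp13 and chr14:54431348-54431597 for Mmp14. Capitals mark the AP-1 motif (TGANTCA), the TATA box letters (TATAAA) and the PEA3 motif of ETS factors (AGGAAG), searched on both strands.
Mmp3: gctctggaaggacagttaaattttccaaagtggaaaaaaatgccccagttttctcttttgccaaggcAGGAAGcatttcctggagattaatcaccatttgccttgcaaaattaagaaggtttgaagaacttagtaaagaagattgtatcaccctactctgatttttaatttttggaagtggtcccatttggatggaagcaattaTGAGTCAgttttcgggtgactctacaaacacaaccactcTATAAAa
Mmp10: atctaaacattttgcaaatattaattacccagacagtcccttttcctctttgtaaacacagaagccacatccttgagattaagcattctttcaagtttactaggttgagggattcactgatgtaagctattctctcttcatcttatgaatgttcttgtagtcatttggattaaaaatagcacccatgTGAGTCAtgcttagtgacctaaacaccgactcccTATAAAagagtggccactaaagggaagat
Mmp13: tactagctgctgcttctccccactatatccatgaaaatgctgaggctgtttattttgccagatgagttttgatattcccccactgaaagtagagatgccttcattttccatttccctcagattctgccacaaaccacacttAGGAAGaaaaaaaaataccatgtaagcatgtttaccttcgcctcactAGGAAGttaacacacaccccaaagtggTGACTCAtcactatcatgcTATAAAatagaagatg
Mmp14: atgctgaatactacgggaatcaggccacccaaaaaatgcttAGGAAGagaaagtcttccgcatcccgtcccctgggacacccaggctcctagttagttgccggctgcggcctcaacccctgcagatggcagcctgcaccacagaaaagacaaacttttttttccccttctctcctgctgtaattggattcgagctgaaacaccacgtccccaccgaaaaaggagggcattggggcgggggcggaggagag

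The AP-1 motif began 46 bases before the start in Mmp3, 63 in Mmp10 and 35 in Mmp13. The TATA box letters began 7, 29 and 16 bases before it in the same order. Neither was found in this window in Mmp11, Mmp14 or Mmp23. Over all 32851 promoter windows of this length, 6.75% held the AP-1 motif, 12.4% the TATA box letters and 29.5% the PEA3 motif. The NF-kB consensus, held by 7.25% of all windows, was in none of the windows of the 6 Mmp genes. A match of letters is a description and does not show that a factor binds there.

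Each value is a log2 ratio, treated over untreated, after background correction with an added offset of 50 and intensity-dependent (loess) normalization. The value at a time is the mean of both dye orientations, written ± the distance of each from it, a technical error only. Over all genes this error had a median of 0.062 and a 95th percentile of 0.20. The orientations correlated over all genes at 0.295, 0.352 and 0.329 at 1, 2 and 4 h. Direction was taken from the dyes that the labels name. In the authors' deposited table of log2 ratios each column equals the scanner file of its dye-swap partner, so the partners are exchanged in one of the sources. If they were exchanged in the scanner files, every sign below would turn. In the labelled direction the IL-1-responsive chemokine Cxcl1 stood at 6.21, 5.49 and 4.84 at 1, 2 and 4 h, and the NF-kB inhibitor gene Nfkbia at 3.02, 2.65 and 1.87. All 12 fibroblast markers were brighter than the 99th percentile of the negative controls in both channels of all 6 arrays.

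Across the family the secreted enzymes Mmp3, Mmp9, Mmp10 and Mmp13 had their highest ratios at 4 h, Mmp2 was slightly higher in treated cells at all times, Mmp11 was slightly lower at all times, Mmp19 and Mmp23 had ratios near 0, and the probes of Mmp14 disagreed in sign. In the mean response over the 3 times, tested against 0 with limma, 5 of the 9 genes rose (Mmp2, Mmp3, Mmp9, Mmp10 and Mmp13) and 1 fell (Mmp11), against 10.5% of all measured genes that rose and 10.8% that fell by the same test. The median of the 9 mean log2 ratios was 0.26, against 0.0037 over all measured genes. This test takes differences between times as error and holds no spread between untreated cultures. The members were chosen with earlier results of these data known. Counts of members above the all-gene shares, here and below, are therefore a description only. The number that rose was 1 without the 2 h sample and 1 with the scanner's processed signals, in each case Mmp2, and it was 3 without the 4 h array that had treated RNA in Cy5.

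**Figure D1:**
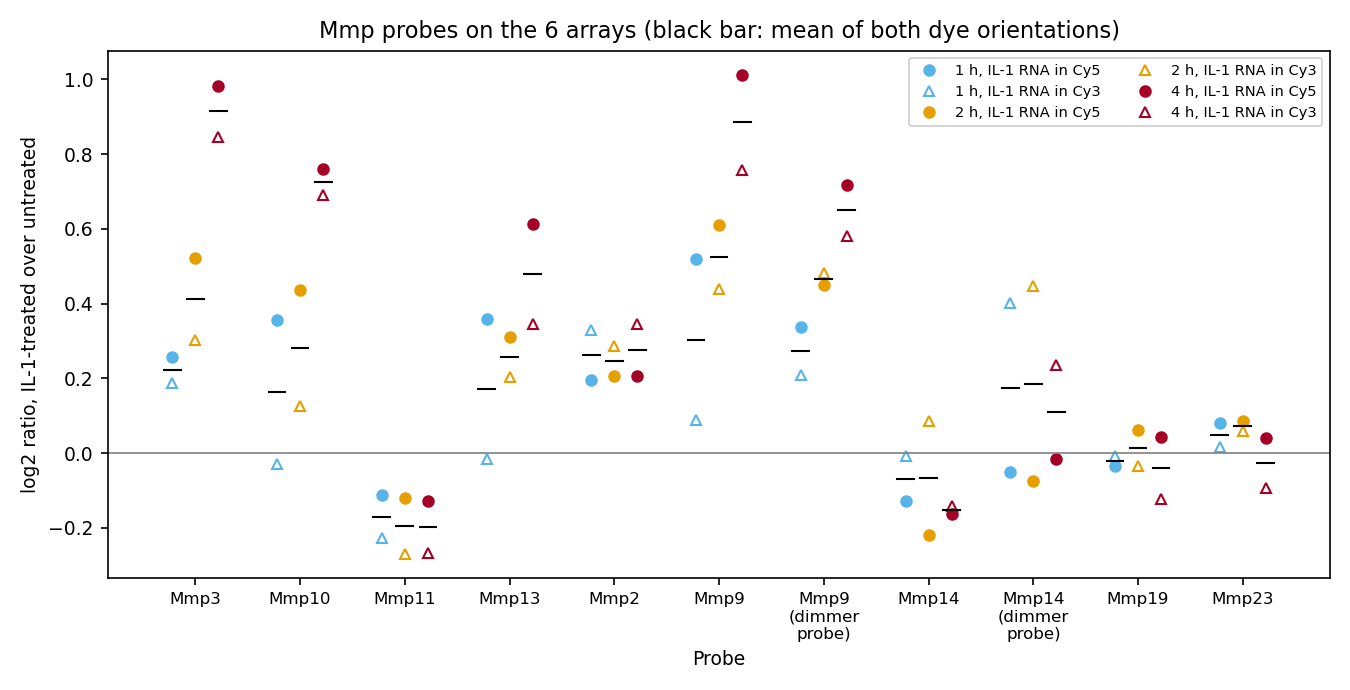
Log2 ratio of IL-1-treated over untreated signal (y axis) for each of the 11 Mmp probes (x axis) on each of the 6 arrays. Filled circles are arrays with treated RNA in Cy5, open triangles those with it in Cy3, colours give the time point, and a black bar is the mean of both. The 4 h points of Mmp3, Mmp9 and Mmp10 lie highest, the 6 points of Mmp11 all lie below 0, and the orientations of the dimmer Mmp14 probe lie on opposite sides of 0.

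Mmp3 encodes stromelysin 1, which degrades proteoglycans and fibronectin and can activate other pro-Mmps. Its log2 ratio was 0.26 and 0.19 at 1 h (treated RNA in Cy5 and in Cy3), then 0.52 and 0.30 at 2 h, with 0.98 and 0.85 at 4 h. All 6 arrays were above 0, and both 4 h arrays lay above both 2 h arrays, which lay above both 1 h arrays. The scanner's processed signal, in arbitrary units, was 1685 and 1652 in treated cells at 1 h, then 1987 and 2061 at 2 h, with 3531 and 2868 at 4 h, against 1274 to 1554 in the untreated channels of the 6 arrays. The treated and untreated ranges did not overlap. The mean response was 0.52 ± 0.12 (SE, n = 3, limma adjusted p = 0.0347), or 1.43-fold. At 4 h the gene stood at 1.89-fold, the 44th highest ratio of the 22210 genes.

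Mmp10 encodes stromelysin 2, a close relative of Mmp3 with a similar range of substrates. Its log2 ratio was 0.36 and -0.029 at 1 h, then 0.44 and 0.13 at 2 h, with 0.76 and 0.69 at 4 h. The 1 h orientations lay on opposite sides of 0, so no direction held there, while at 4 h they differed by little and stood 71st of all genes. With the scanner's processed signals the 1 h ratios were 0.55 and 0.0026. Processed signals were 694 and 419 in treated cells at 1 h, then 784 and 568 at 2 h, with 1445 and 1048 at 4 h, against 418 to 631 in untreated channels, so the ranges overlapped except for the 4 h arrays. The mean response, 0.39 ± 0.10 (SE, n = 3), was just past the threshold (limma adjusted p = 0.0466). It missed it without replicate 1, the arrays with treated RNA in Cy5 (0.26, limma adjusted p = 0.154), and adjusted p ranged between 0.00425 and 0.154 over 24 alternatives.

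Mmp13, collagenase 3, is a principal collagenase of rodents and cuts fibrillar collagens. Its log2 ratio was 0.36 and -0.015 at 1 h, then 0.31 and 0.20 at 2 h, with 0.61 and 0.34 at 4 h. As for Mmp10, the 1 h orientations did not share a sign and the 4 h arrays were both above 0. With the scanner's processed signals the 1 h ratios were 0.85 and 0.11. Processed signals were 390.4 and 303 in treated cells at 1 h, then 364 and 416 at 2 h, with 702 and 563 at 4 h, against 215 to 292 in untreated channels. The ranges did not overlap, but these were dim spots: the untreated channel exceeded the 99th percentile of the negative controls on 3 of 6 arrays and the treated channel on 5. The mean response was 0.30 ± 0.058 (SE, n = 3, limma adjusted p = 0.0183) and missed the threshold without replicate 1 (0.18, limma adjusted p = 0.0821).

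Mmp11, stromelysin 3, is activated inside the cell by furin and cuts few matrix proteins. Its log2 ratio was -0.11 and -0.23 at 1 h, then -0.12 and -0.27 at 2 h, with -0.13 and -0.27 at 4 h. All 6 arrays were below 0, the Cy3 arrays by more, and the time points hardly differed. The mean response of -0.19 ± 0.022 (SE, n = 3, limma adjusted p = 0.00491) was a fall to 0.878-fold. Processed signals ranged between 2544 and 3300.3 in treated and between 2953 and 3725 in untreated channels, and these ranges overlapped. Without the 2 h sample adjusted p was 0.0537 (limma).

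The gelatinases Mmp2 and Mmp9 cut denatured collagen and the type IV collagen of basement membranes. Mmp9 (gelatinase B) had 2 probes. The brighter read 0.52 and 0.088 at 1 h, then 0.61 and 0.44 at 2 h, and 1.01 and 0.76 at 4 h. On the dimmer it was 0.34 and 0.21, 0.45 and 0.48, and 0.72 and 0.58. Both probes were above 0 on all 6 arrays and highest on the 4 h arrays. Processed signals of the brighter probe were 823 and 625 in treated cells at 1 h, then 951 and 706 at 2 h, with 1379.8 and 1134 at 4 h, against 319 to 501 in untreated channels, and the ranges did not overlap. The mean response was 0.57 ± 0.10 (SE, n = 3, limma adjusted p = 0.0151), and the 4 h value of 1.85-fold was the 49th highest of all genes.

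Mmp2 (gelatinase A), whose proenzyme is activated at the cell surface by Mmp14 together with Timp2, had similar values at all 3 times. Its log2 ratio was 0.20 and 0.33 at 1 h, then 0.21 and 0.29 at 2 h, with 0.21 and 0.35 at 4 h. All 6 arrays were above 0, and the time points differed by less than the dye orientations. The mean response was 0.26 ± 0.022 (SE, n = 3, limma adjusted p = 0.00225), or 1.20-fold, and it stayed past the threshold under all 24 alternatives, of which the scanner's processed signals and the authors' table hold the same values, with values between 0.14 and 0.32. Processed signals ranged between 6311 and 7007 in treated and between 4802 and 6042 in untreated channels, without overlap.

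Mmp14 (membrane-type 1 Mmp) is anchored in the plasma membrane and cuts collagen there. Its brighter probe gave -0.13 and -0.0081 at 1 h, then -0.22 and 0.086 at 2 h, with -0.16 and -0.14 at 4 h. Its dimmer probe gave -0.050 and 0.40, -0.075 and 0.45, and -0.015 and 0.23. The probes disagreed in sign of the mean at each time, and on the dimmer the orientations disagreed as well, so Mmp14 had no settled direction. The mean response of the brighter probe, -0.095 ± 0.027 (SE, n = 3), did not pass (limma adjusted p = 0.0560), whereas with the dimmer probe it was 0.16 (limma adjusted p = 0.0115). With dye orientation as a replicate block over the 6 single arrays, the brighter probe passed (limma adjusted p = 0.0450). In that fit both arrays of a dye-swapped pair are counted as separate samples, so its p-values rest on technical repeats. No Mmp spot was saturated.

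Mmp19, a secreted Mmp found in several healthy tissues, and Mmp23, a small membrane-anchored Mmp without the usual haemopexin domain, were close to the untreated level. Mmp19 had log2 ratios between -0.12 and 0.061 on the 6 arrays and a mean response of -0.016 ± 0.023 (SE, n = 3, limma adjusted p = 0.678). For Mmp23 the ratios lay between -0.093 and 0.086, with a mean response of 0.032 ± 0.027 (SE, n = 3, limma adjusted p = 0.478). These tests do not show that the genes were unaffected.

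**Figure D2:**
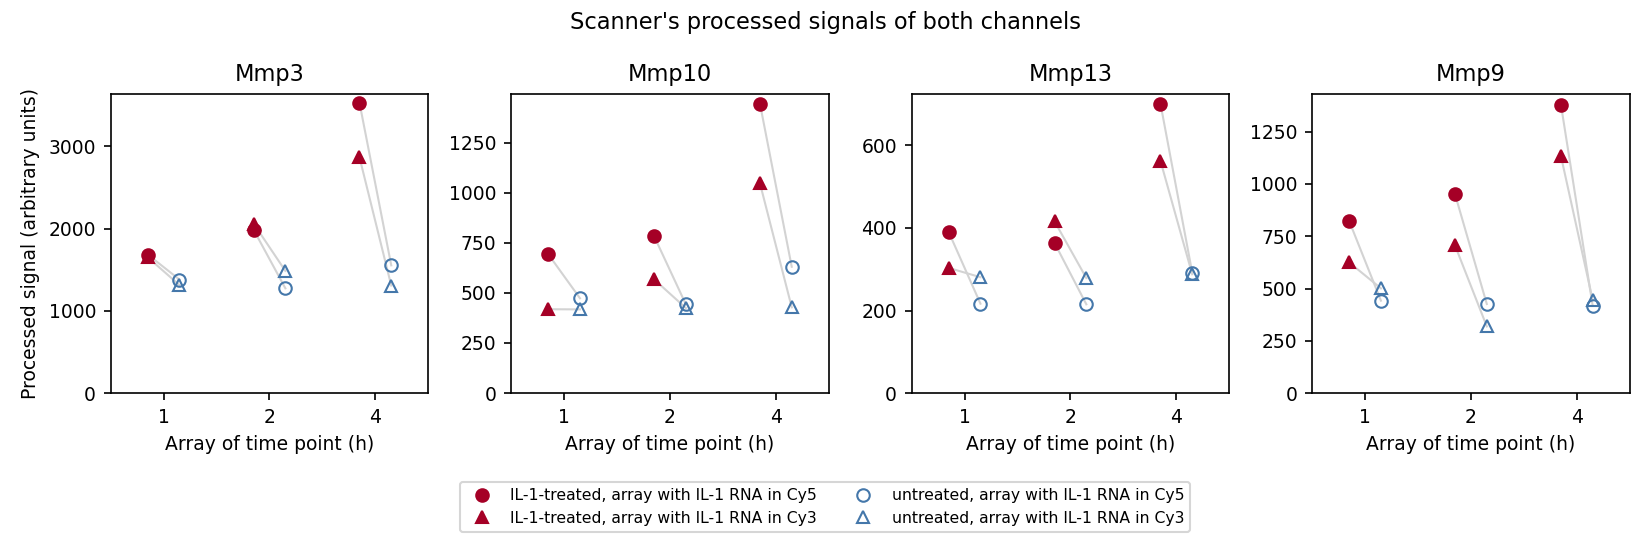
Scanner's processed signal in arbitrary units (y axis, from 0) on the arrays of each time point (x axis, h) for the brightest probe of Mmp3, Mmp10, Mmp13 and Mmp9, with treated channels as filled red and untreated channels as open blue symbols. Circles are arrays with treated RNA in Cy5 and triangles those with it in Cy3, and a line joins the channels of 1 array. At 4 h Mmp3 reached 3531 and 2868 in treated channels, above the 1274 to 1554 of all untreated channels.

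Counted by size, 0 of the 9 genes were at least 1.5-fold higher in both orientations at 1 h, against 0.410% of all genes, and 0 at 2 h, against 0.428%. At 4 h 3 genes passed, Mmp3, Mmp9 and Mmp10, against 0.369% of all genes. With a 2-fold rule 0 of the 9 passed at 4 h, against 0.135%. None was 1.5-fold lower at any time, against 0.0315%, 0.0630% and 0.0585% of all genes at 1, 2 and 4 h. With 1 sample a time point, these counts carry no test, and with median centring in place of loess 0 of the 9 passed the 1.5-fold rule at 4 h. At 4 h the orientations of Mmp3 and Mmp9 overlapped, and so did those of Mmp9 and Mmp10, whereas both orientations of Mmp10 lay above both of Mmp13. With the scanner's processed signals Mmp10 (1.20 and 1.29) and Mmp13 (1.27 and 0.97) overlapped too.

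The 4 h values differed between the processing used here and the scanner's processed signals, which differ from it in background step, offset and dye normalization together. With the scanner's signals Mmp9 stood at 1.54 ± 0.19 on the log2 scale (2.90-fold), Mmp10 at 1.24 ± 0.047 (2.37-fold), Mmp3 at 1.16 ± 0.026 (2.23-fold) and Mmp13 at 1.12 ± 0.15 (2.17-fold). The order of Mmp3, Mmp9 and Mmp10 differed between these processings, and which step moved it was not tested. For the brighter genes Mmp2 (0.30) and Mmp11 (-0.24) the value hardly moved. The mean responses also grew with these signals, to 0.68 for Mmp3, 1.10 for Mmp9, 0.71 for Mmp10 and 0.76 for Mmp13, but so did their spread over the times, and limma adjusted p lay between 0.0608 and 0.114. With only the offset changed, to 16, the mean responses were 0.80 for Mmp9, 0.54 for Mmp10 and 0.49 for Mmp13. For the brighter Mmp3 and Mmp2 they were 0.60 and 0.28. The size of the ratios of the dim genes thus depends on the offset.

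**Figure D3:**
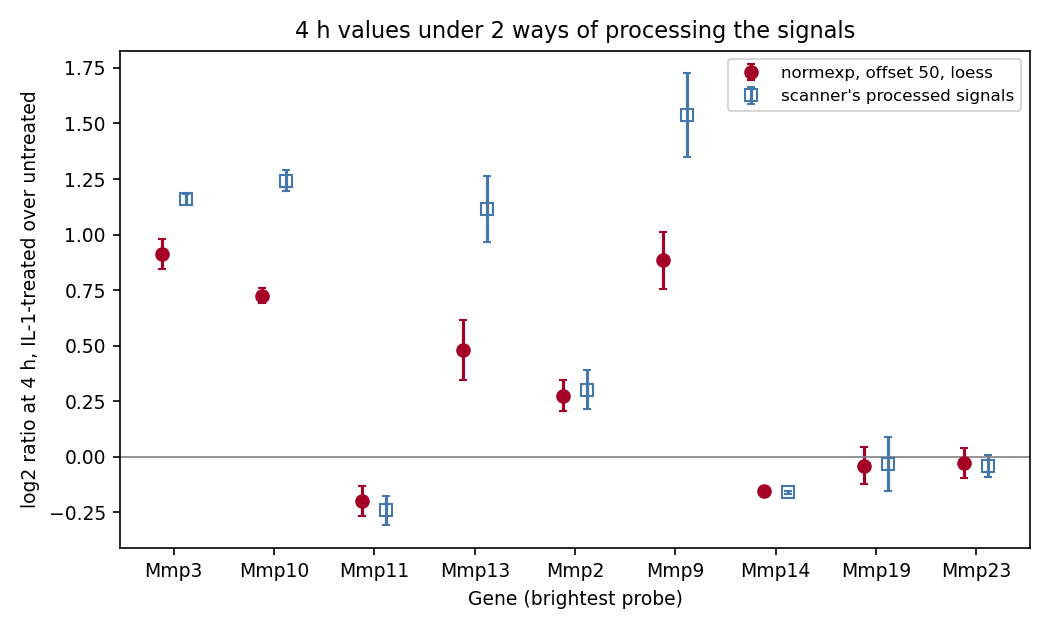
Log2 ratio of treated over untreated signal at 4 h (y axis) for the brightest probe of each Mmp gene (x axis), with the values used here as filled red circles and the scanner's processed signals as open blue squares. Bars reach to either dye orientation. Mmp9 moves to 1.54, Mmp10 to 1.24 and Mmp13 to 1.12 with the processed signals, while Mmp2, Mmp11, Mmp14, Mmp19 and Mmp23 hardly move.

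Differences between times were tested as a slope per doubling of time, in which the untreated RNA cancels only if 1 extract served all arrays. Rising slopes past the threshold belonged to 2 of the 9 genes, Mmp9 and Mmp3, against 0.203% of all measured genes. None of the 9 had a falling slope past it, against 0.243%, and none had one at an unadjusted p under 0.05 (limma). The slope of Mmp9 was 0.29 ± 0.032 (SE, n = 3, limma adjusted p = 0.0317) and that of Mmp3 was 0.35 ± 0.045 (SE, n = 3, limma adjusted p = 0.0474), the 14th highest of all genes by signed slope. From 1 h to 4 h Mmp3 gained 0.73 (treated RNA in Cy5) and 0.66 (in Cy3), and Mmp9 gained 0.49 and 0.67. Mmp10 (0.28, limma adjusted p = 0.0832) and Mmp13 (0.15, limma adjusted p = 0.152) did not pass.

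These slope calls rest on 1 residual degree of freedom and were fragile. They ended with the scanner's processed signals (limma adjusted p = 0.514 for both genes), with an offset of 16, with limma's trended robust variance and without either replicate. With dye orientation as a replicate block over the 6 single arrays, Mmp10 passed as well (limma adjusted p = 0.0493). That fit counts both arrays of a dye-swapped pair as separate samples, so its p-values rest on technical repeats. The sign was positive in all 21 alternatives for Mmp3, Mmp9, Mmp10 and Mmp13. For Mmp2 the slope was 0.0064 and for Mmp11 it was -0.014, both with adjusted p above 0.9 (limma adjusted p = 0.964 and 0.907).

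**Figure D4:**
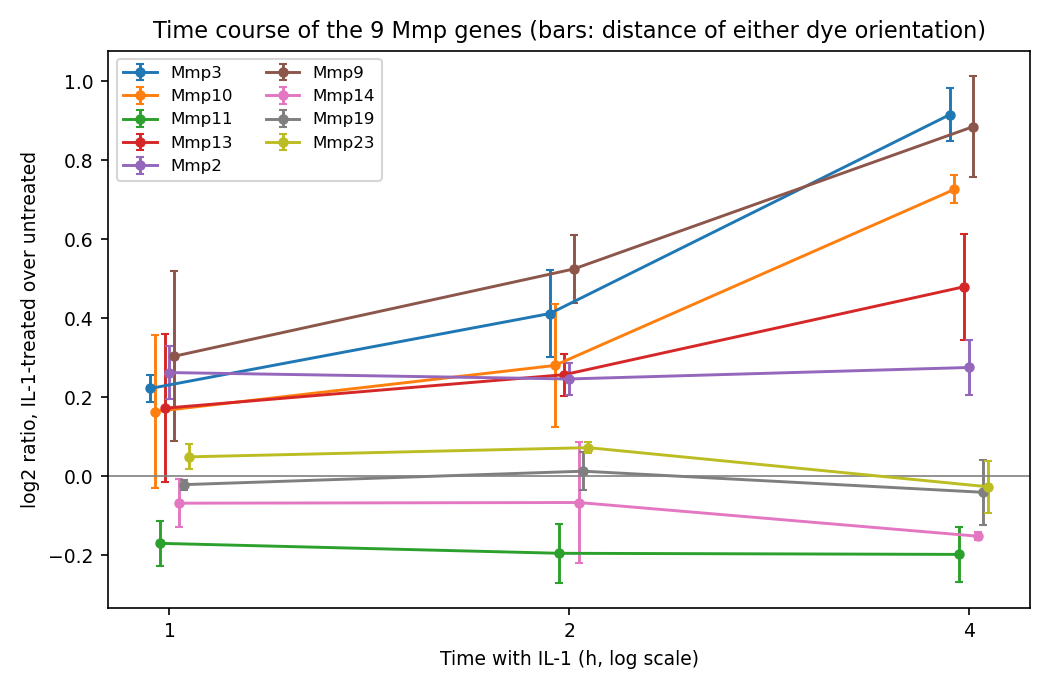
Log2 ratio of treated over untreated signal (y axis) against time with IL-1 (x axis, h, log scale) for the brightest probe of each of the 9 Mmp genes. Points are means of both dye orientations and bars reach to either orientation. Mmp3 reaches 0.91, Mmp9 to 0.89, Mmp10 to 0.73 and Mmp13 to 0.48 at 4 h, Mmp2 stays between 0.25 and 0.28, and Mmp11 stays between -0.20 and -0.17.

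Mmp13, Mmp3 and Mmp10 lie in 1 cluster of 10 Mmp genes on chromosome 9, in the order Mmp13, Mmp12, Mmp1b, Mmp3, Mmp1a, Mmp10, Mmp8, Mmp27, Mmp20 and Mmp7. The measured neighbours had 4 h log2 ratios near 0. Mmp12 (macrophage elastase), between Mmp13 and Mmp3, was at 0.059 at 4 h, and Mmp1a, between Mmp3 and Mmp10, was at -0.093. Mmp20 stood at 0.048 and Mmp7 (matrilysin) at 0.013. Mmp8 did not pass the filter on dim probes. Of the other family members 10 of 14 were measured. In the mean test 0 passed in either direction (limma), against 10.5% of all genes that rose and 10.8% that fell. An unadjusted p under 0.05 (limma) was held by 2 of the 10, against 7701 of all 22210 genes. The median mean log2 ratio of the 10 was 0.017, against 0.0037 over all genes. Only 3 of these 10 were above the 99th percentile of the negative controls in both channels of all arrays, so most were too dim for a small ratio to be informative.

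By the distance of their 3 time values, the genes nearest to Mmp3 were the acute-phase gene Saa3 (0.22, 0.41 and 0.89 at 1, 2 and 4 h, distance 0.0236), the class I histocompatibility gene H2-T10, Serpinb2 (plasminogen activator inhibitor 2), the proteoglycan gene Dcn (decorin) and Gch1, the first enzyme of tetrahydrobiopterin synthesis. Nearest to Mmp9 were the haem oxygenase gene Hmox1 (0.33, 0.55 and 0.82, distance 0.0741), Cfap69, the collagen gene Col5a3, Gch1 and the neuropeptide gene Nts. Nearest to Mmp10 were Rhbdf2, an inactive rhomboid that controls shedding by Adam17 (0.22, 0.33 and 0.75, distance 0.0829), the complement gene C3, H2-T22, the glutaredoxin gene Glrx and the growth factor receptor gene Fgfr1. Likeness over 3 values that share the untreated RNA is a description only.

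The gene lists below are read against the 10.5% of all measured genes that rose, the 10.8% that fell and the all-gene median of 0.0037 in the same test. The lists were chosen with earlier results of these data known, so a count above these shares is a description only. Among inhibitors of Mmp activity 1 of 9 measured genes rose and 2 fell in the mean response, counts near those shares, with a list median of -0.012. Timp2 fell by 0.14 (limma adjusted p = 0.0124) and Tfpi2 by 0.18. Timp1 is listed as higher (0.20), but its spots were saturated, which limits that ratio. Timp3 (-0.012) and the membrane-anchored inhibitor Reck (-0.091), both named after their values were seen, did not pass. In the list for activation of pro-Mmps 2 of 13 rose, against 10.5% of all genes, and 0 fell, against 10.8%, with a median of 0.033. These counts too are near the shares of all genes. Among them was the urokinase receptor gene Plaur, with a mean response of 0.31 (limma adjusted p = 0.0110). Serpinb2 went with Mmp3 in time, at 0.13, 0.47 and 1.01, with a rising slope of 0.44 (limma adjusted p = 0.0123).

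Of 12 cell surface partners of Mmps 7 rose, against 10.5% of all genes, and 1 fell, against 10.8%, with a median of 0.14, against 0.0037. The largest were the syndecan gene Sdc4 (0.81), the hyaluronan receptor gene Cd44 (0.43), which can hold Mmp9 at the surface, the uptake receptor gene Lrp1 (0.31), the integrin genes Itgb1 (0.30) and Itgav (0.18), and Sdc1 (0.24). The gene that fell was Cav1 (-0.17), named after its value was seen. Of 20 measured genes listed as acting at Mmp promoters 12 rose, against 10.5% of all genes, and 3 fell, against 10.8%. The list median was 0.55, against 0.0037, and binding was not measured. The largest were Nfkbiz (2.19), Relb (1.83), Cebpb (1.18), Nfkb2 (1.07), Nfkb1 (0.99) and the ETS factor gene Ets2 (0.86). The 3 that fell, Fos (-0.32), Runx2 (-0.24) and Sp1 (-0.087), were named after their values were seen. So were the other Fos, Jun and Atf3 genes listed. Of these Fosl2 (0.64), Fosl1 (0.58) and Jund (0.34) rose. Fosb, Jun, Junb and Atf3 did not pass, with log2 ratios of 0.089, 0.56, 1.33 and 1.18 at 1 h. At 4 h they stood at 0.024, 0.11, 0.22 and -0.029. Of this list 3 genes, Nfkbiz, Atf3 and Fosl2, had a falling slope past the threshold, against 0.243% of all genes. A rising one was held by 0, against 0.203% (limma).

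Mmp9 is also a product of macrophages and neutrophils. Of 8 macrophage markers 6 were measured and 3 rose in the mean response, Cd14 (0.17), Csf1r (0.13) and Lyz2 (0.086), against 10.5% of all genes, and none of the 3 had a slope past the threshold. The measured markers Cd68 (-0.00097) and Adgre1 (-0.0087), looked up after the other values were seen, did not pass the mean test. The summed processed signal of the 6 measured markers ranged between 32479 and 39786 in treated and between 30173 and 38762 in untreated channels. The pan-leukocyte gene Ptprc was above the 99th percentile of the negative controls on 3 of 6 arrays in either channel, and its mean response, looked up after the other values were seen, was -0.026. Of 8 neutrophil markers 2 were measured and 0 rose or fell, against 10.5% and 10.8% of all genes. An unadjusted p under 0.05 (limma) was held by 0 of the 2, against 7701 of all 22210 genes. The part of macrophages and neutrophils in the Mmp9 values was not tested.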

How the data were processed

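RNA of treated and untreated fibroblasts was measured on 6 two-colour Agilent arrays. Per the file headers the authors read the spots with Agilent Feature Extraction 7.5.1. The deposited intensity columns hold mean spot and background brightness, and the processed intensity was background-subtracted and dye-normalized, per the file headers. The table of log2 ratios that the authors deposited equals log2 ratios of processed intensities, each column being that of its dye-swap partner within 0.001 at 100% of spots. Its column medians lay between -0.0325 and 0.0311.

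Background was removed from mean signals by normexp with an offset of 50, and dyes were balanced within arrays by loess (limma 3.58.1, R 4.3.3), control and outlier spots having weight 0 and then being left out. A probe was kept where some condition had it well above background on all of its arrays (30634 of 41174), and 54 of these had a missing value and were dropped. The brightest probe stood for a gene. RefSeq accessions (GRCm38.p6) named 22072 probes, and the others kept the files' names.

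Orientations were averaged. Mean response and slope in log2 time were tested with limma's moderated statistics. Two-sided p-values were adjusted over all genes (Benjamini-Hochberg), with a threshold of 0.05. The fits were tested on simulated data. Same-numbered arrays share a dye orientation per the labels, and their deviations from the time means correlated at 0.781 to 0.855 across genes.

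Members and lists were chosen with earlier results of these data known. Besides the members, the rule for named genes takes the 5 genes nearest to each member with a log2 ratio of 0.5 in size in both orientations, and up to 6 genes a list past the threshold, of which 1 is not reported here. Alternatives changed the background correction, normalization, filter, probe choice, variance model, replicates and times. The number of arrays limits the precision.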

Additional observations from a re-analysis of the deposited data

Results flagged for a closer look

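The slopes of Mmp3 (0.35 per doubling of time on the log2 scale) and Mmp9 (0.29) were marked because their response differed between time points by a test of the difference itself, the limma slope. The call for Mmp3 ended when outlier spots were kept in the loess fit (limma adjusted p = 0.0506), and that for Mmp9 ended with its dimmer probe (slope 0.19, limma adjusted p = 0.0622). Leaving out single arrays also ended both calls in 4 of 6 cases.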

How the results depend on the processing

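Mmp2, Mmp3, Mmp9, Mmp10, Mmp13 and Mmp11 kept the sign of their mean response under all 24 alternatives. Among these the authors' deposited table, with its columns exchanged to match the scanner files, repeats the processed signals and is no separate check. The exchange is within a dye-swapped pair and changes no sign, so the mean of each time point is the same without it. The number that rose, 5 as reported, was 1 with the processed signals of the scanner and with the authors' deposited table, 3 with an offset of 16, and 3 to 5 without replicate 1 or 2. It was 1 to 5 when a time point was left out, with 1 without the 2 h sample, and 3 to 5 when an array was left out. The number that fell, 1 as reported, was 2 without background correction, with median centring, with probes above background in both channels of all arrays, and with the replicate block. It was 1 to 2 without replicate 1 or 2, and 0 to 2 when a time point or an array was left out, with 0 without the 2 h sample. The change from 1 to 2 is Mmp14, whose mean response turned to 0.16 with its dimmer probe.

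The number of rising slopes, 2 as reported, was 0 with the processed signals, the deposited table, an offset of 16 and the trended robust variance. In these settings 4 members kept an unadjusted p under 0.05 (limma), against 2023 to 2371 of all 22210 genes in either direction. The number of rising slopes was 1 with probes above background in both channels of all arrays, with outlier spots kept in the loess fit and with the dimmer probes. It was 4 with median centring, 0 without replicate 1 or 2, and 0 to 4 when an array was left out. At 2 h 1 gene passed the 1.5-fold rule with the processed signals, the deposited table and an offset of 16, and 0 to 1 without replicate 1 or 2. At 4 h 0 passed with median centring, and 0 passed at 2-fold. Over all genes the number that rose ranged between 472 and 4745, and that of rising slopes between 0 and 237. Among the calls on the 9 genes, the replicate block changed no other than those given. Over all genes it gave 3320 that rose, against 2338, and 165 rising slopes, against 45. It counts both arrays of a dye-swapped pair as separate samples, so these larger counts rest on technical repeats. The other genes named were not looked up in the replicate block. Causes were not tested. A slide block was not run, since each of the 6 slides held 1 array. The alternatives on outlier spots, single arrays, dimmer probes and centring after loess were chosen after seeing the data. Dim signal limits Mmp9, Mmp10 and Mmp13.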
